A study of Mus musculus with 6 samples.

Results

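Forkhead factors and a pair of other transcription regulators that mark brain endothelium were followed in endothelial cells that lack the Wnt receptor Frizzled4. The set holds Foxq1, Foxf2, Foxc1, Foxf1, Foxc2, Foxo1, Foxp1, Ppard and Mecom, chosen by name as transcription factors of brain endothelium. Every Affymetrix probe set that the platform annotation assigns to 1 of these symbols alone was taken, which gave 26 of 45037 probe sets and 9 of 18193 genes. A single probe set that names Ppard together with another gene was left out. The cells were cerebellar, from mice of postnatal day 16, and were captured with magnetic beads that carry an antibody against PECAM, an endothelial surface protein. The 2 groups were Fz4-/- mice, called Fz4-null here, and wild type mice, and both were of mixed gender and a C57Bl6/129 mixed background. Each group had 3 preparations, each on 1 array, and the labels do not say whether a preparation came from 1 animal or a pool, so the p-values reflect only how these preparations scatter. The labels name neither the deleted part of the gene nor a Cre driver. All levels are log2 expression after RMA, which removes background, puts the arrays on a common distribution and combines the probes of a set, and all differences are Fz4-null minus wild-type on the log2 scale.

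Forkhead proteins bind DNA through a winged-helix domain, and different members act in vessel growth, in vessel identity and in the response to growth factors. Foxf2 and Foxq1 are enriched in the endothelium of the brain, where canonical Wnt signalling through Frizzled4 and beta-catenin maintains the blood-brain barrier. Foxf2 is also a gene of brain pericytes, and Foxc1 and Foxc2 are genes of the meninges and vessel wall as well as of endothelium. Foxo1 is held out of the nucleus by insulin and growth factor signalling, Ppard encodes a nuclear receptor for fatty acids, and Mecom encodes a zinc finger factor of haematopoietic and endothelial cells.

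Fzd4, the targeted gene, separated the genotypes on every array. Its brightest probe set read 10.80, 10.20 and 10.88 in wild-type replicates 1 to 3 and 3.04 to 4.03 in the 3 Fz4-null replicates, of which replicate 1 was the lowest. That probe set passed the test of the genotypes used below (-6.94, limma adjusted p = 0.00965). The other Fzd4 probe sets were also lower in the null group without overlap, but did not pass. They gave -4.95 (30.8-fold lower, limma adjusted p = 0.0769) and, for a dim one, -1.74 (limma adjusted p = 0.85). A large loss can therefore miss the threshold, and not passing does not show that a gene was unchanged. Markers of endothelium were bright in all preparations, with a mean over 10 genes of 11.25 to 11.42 on the wild-type arrays and 11.50 to 11.59 on the Fz4-null ones. Fz4-null replicate 1 stood apart in markers of other cells: against the wild-type mean it lay at -2.60 for 11 meningeal and perivascular fibroblast genes, -2.78 for 9 microglia and macrophage genes and -1.41 for 11 pericyte and smooth muscle genes. It also lay at -1.93 for 8 astrocyte and Bergmann glia genes and -1.23 for 7 granule neuron genes. For 5 Purkinje cell genes it lay at -0.02. Only 1 of those 5 was above the array median on all 6 arrays, so a fall could hardly be seen in that list. The other null replicates lay between -0.60 and 0.60 for these lists. The arrays numbered 3 stood apart in both genotypes. On them the 3′ Gapdh control probe set exceeded the 5′ one by 2.20 (wild type) and 2.03 (null). The other 4 arrays gave 0.87 to 1.07. For beta-actin the same difference was 1.14 and 1.18 against 0.94 to 1.08. What set the arrays numbered 3 apart in these controls was not tested.

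None of the 9 transcription factors passed the test of the genotypes across all probe sets. With limma, 0 of 9 genes passed an adjusted p of 0.05, where 0.022% of all genes did, and 0 of 9 had an unadjusted p under 0.05, where 4.6% did. Of the 26 probe sets 0 passed, against 0.0111% of all probe sets, and 0 had an unadjusted p under 0.05, against 4.46%. The median difference over the 9 genes was 0.00, with a range of -0.78 (Foxf1) to 0.10 (Foxo1), and the median over all genes was 0.008. A difference smaller than 0.5 was found for 7 of 9 genes and for 88.2% of all genes. The precision differed among the members. For 5 of 9 (Foxq1, Foxc1, Foxo1, Foxp1 and Mecom) the 95% interval lay within 2-fold in either direction, whereas for Foxf1, Foxc2, Foxf2 and Ppard it did not.

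**Figure D1:**
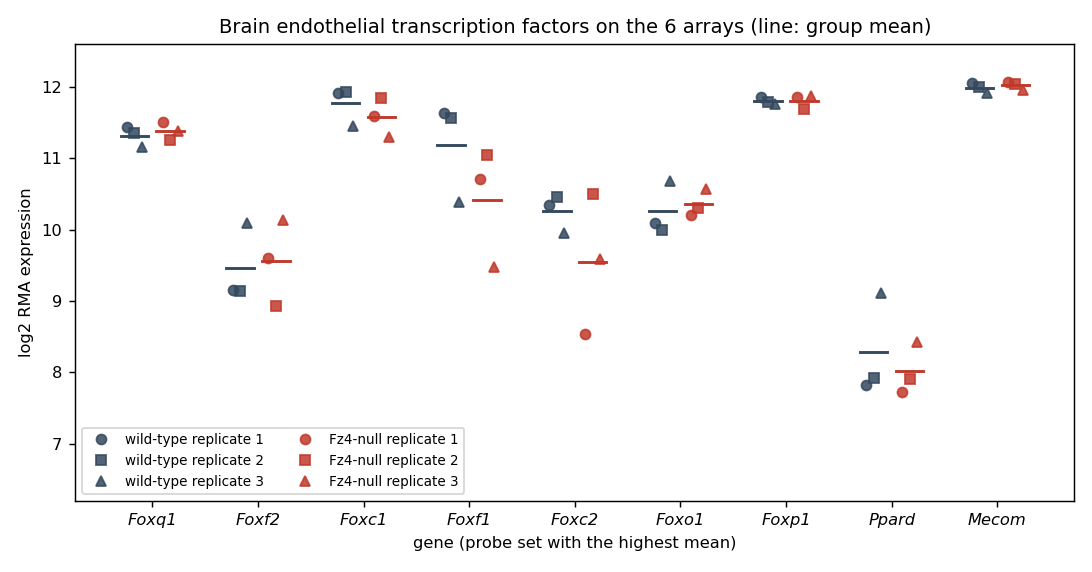
Log2 RMA expression (y axis) of the 9 transcription factors (x axis, each by its brightest probe set) on 3 wild-type and 3 Fz4-null arrays. Points are single arrays, with symbols for the replicate numbers, and lines are group means. The groups overlap for every gene. Foxf1 is lower in the null array of each number, and the single low Foxc2 point is Fz4-null replicate 1 at 8.53.

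**Figure D2:**
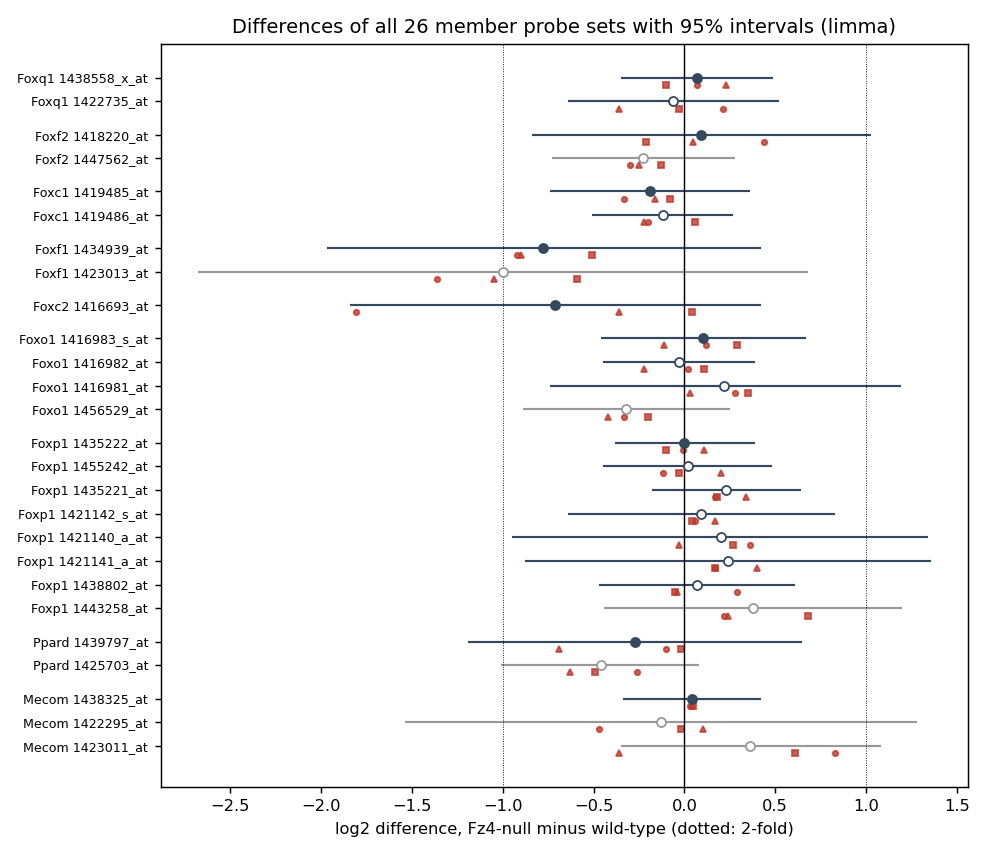
Log2 difference of Fz4-null minus wild-type (x axis) for the 26 member probe sets (y axis). Large circles are the limma estimates with 95% intervals, filled for the brightest probe set of a gene and grey for probe sets that were not above the array median on all 6 arrays. Small red symbols are the differences within number 1 (circle), 2 (square) and 3 (triangle). All intervals include 0, and the widest belongs to the dimmer Foxf1 probe set.

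Foxq1, Foxf2 and Foxc1 lie next to each other on chromosome 13 (GRCm38.p6), Foxq1 at chr13:31558170-31560976, Foxf2 at chr13:31625816-31631406 and Foxc1 at chr13:31806646-31810635. The gaps are 64.8 and 175.2 kb. Foxq1, a forkhead factor of brain endothelium, read 11.44, 11.35 and 11.15 in wild-type replicates 1 to 3 and 11.51, 11.25 and 11.38 in the null replicates. The groups overlapped, and the means were 11.31 ± 0.15 (SD, n = 3) and 11.38 ± 0.13. The difference was 0.07 (95% interval -0.35 to 0.49, limma adjusted p = 1.0), which spans 0.783 to 1.40-fold. That probe set can read more than 1 transcript, and the other one, which read 10.85 ± 0.12 and 10.79 ± 0.41, gave -0.06.

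Foxf2, which is required for a tight barrier and for pericyte differentiation in the brain, read 9.16, 9.14 and 10.09 on the wild-type arrays and 9.60, 8.93 and 10.14 on the Fz4-null ones. Both high values belong to the arrays numbered 3. The difference was 0.09 (95% interval -0.84 to 1.03, adjusted p = 1.0), so changes within 0.559 to 2.04-fold were not excluded. Within the numbers it was 0.44, -0.21 and 0.05. On Fz4-null replicate 1, where pericyte and smooth muscle markers lay 1.41 below the wild-type mean, Foxf2 was above wild-type replicates 1 and 2. A second probe set lay near the arrays' lower quartiles (3.46 to 3.64), at 3.59 and 3.36.

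Foxc1, a factor of vessel and meningeal development, read 11.92, 11.93 and 11.45 on the wild-type arrays and 11.59, 11.85 and 11.29 on the Fz4-null ones. It was lower in the null array of each number, by -0.33, -0.08 and -0.16. The difference of -0.19 (95% interval -0.74 to 0.36, adjusted p = 1.0) was smaller than the SD of 0.28 in either group. Its other probe set gave -0.12, with 10.70 ± 0.07 (SD, n = 3) on the wild-type arrays and 10.58 ± 0.09 on the Fz4-null ones. Within the numbers that probe set gave -0.20, 0.06 and -0.22, so it was not lower within number 2. Of the 3 protein-coding genes on either side of this cluster, 5 were measured (Irf4, Exoc2, Gmds, Mylk4 and Wrnip1), with differences between -0.18 and 0.15.

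Foxf1 and Foxc2 form a second cluster, at chr8:121084386-121088154 and chr8:121116171-121118895, 28.0 kb apart, and they had the largest differences among the members. Foxf1, a factor of lung and visceral endothelium and mesenchyme, read 11.63, 11.56 and 10.38 on the wild-type arrays and 10.71, 11.05 and 9.48 on the Fz4-null ones. The groups overlapped: both arrays numbered 3 were low, and wild-type replicate 3 read below Fz4-null replicates 1 and 2. The difference was -0.78 (SE 0.50, 95% interval -1.97 to 0.42, n = 3, adjusted p = 1.0), from 11.19 ± 0.70 to 10.41 ± 0.82 (SD). Within the numbers the null array was lower each time, by -0.92, -0.51 and -0.90. The second, dimmer Foxf1 probe set showed the same order, with 7.64, 7.62 and 5.82 on the wild-type arrays and 6.28, 7.03 and 4.77 on the Fz4-null ones. Its differences within the numbers were -1.36, -0.59 and -1.05.

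Foxf1 was the only 1 of 9 members whose null array was lower by over 0.5 within every number, a size chosen after the values were seen, and 1.04% of all genes met it. Being lower within every number by any amount was found for 3 of 9 members (Foxf1, Foxc1 and Ppard), against 15.7% of all genes. Being higher within every number was found for 1 (Mecom, by 0.03 to 0.05), against 17.6%. With the replicate number as a block in limma, Foxf1 had an SE of 0.16, an unadjusted p of 0.00572 and an adjusted p of 0.461. It did not pass. In that fit 1 of 9 members and 8.89% of all genes had an unadjusted p under 0.05, and 0 genes passed. The same held for 3 of 26 member probe sets, both of Foxf1 and a dim one of Ppard, and for 8.7% of all probe sets. Leaving out wild-type replicate 3 gave a Foxf1 difference of -1.18, and leaving out Fz4-null replicate 3 gave -0.31.

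Foxc2, a factor of lymphatic valves, veins and vessel wall, read 10.35, 10.46 and 9.95 on the wild-type arrays and 8.53, 10.50 and 9.59 on the Fz4-null ones. Fz4-null replicate 1 was the low array, and Fz4-null replicate 2 was the highest of all 6. The difference was -0.71 (SE 0.48, 95% interval -1.84 to 0.42, adjusted p = 1.0), and it was -0.21 without Fz4-null replicate 1 and -1.19 without Fz4-null replicate 2. Fz4-null replicate 1 also had the lowest fibroblast, mural, microglial, astrocyte and granule neuron signal. Of the 11 fibroblast markers 7 were above the median of all 6 arrays, and all 11 had a lower mean in the null group. The list's mean level was 6.66, 9.75 and 8.66 on null replicates 1 to 3 against 9.11 to 9.54 in wild type. The mean of 4 lymphatic endothelial markers was also lowest on Fz4-null replicate 1, at 7.23 against 8.12 to 8.89 on the other 5 arrays. Prox1, Lyve1 and Pdpn were lowest on that array, whereas Flt4 was highest, at 11.32. In such bulk preparations fewer cells of a type and less RNA per cell cannot be told apart, and the part of these cells in the Foxc2 value was not tested.

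**Figure D3:**
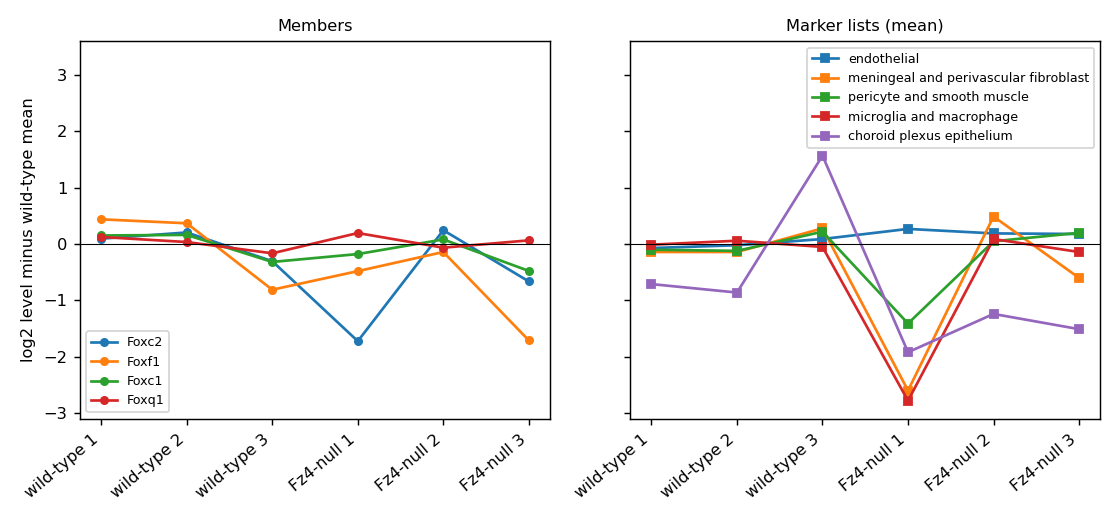
Log2 level minus the wild-type mean (y axis) on each of the 6 arrays (x axis) for Foxc2, Foxf1, Foxc1 and Foxq1 (left) and for the mean of 5 lists of cell type markers (right). Lines join the arrays to guide the eye. Foxc2 is low on Fz4-null replicate 1, as are fibroblast and microglial markers, whereas Foxf1 is low on both arrays numbered 3.

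The paralogues were set against each other in a test of the difference itself. Foxf1 changed relative to Foxf2 by -0.87 between the genotypes, by -1.36, -0.30 and -0.95 within the numbers (exact permutation test over 3 and 3 arrays, two-sided, p = 0.50). Foxc2 changed relative to Foxc1 by -0.52 (exact permutation test, two-sided, p = 0.50, and 0.50 for both after Benjamini-Hochberg adjustment over the 2 comparisons). The smallest p this design can give is 0.1, so the test could not pass 0.05 whatever the values. Within the numbers the Foxc2 difference relative to Foxc1 was -1.48, 0.12 and -0.20.

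Genes beside Foxf1 and Foxc2 on the chromosome gave smaller differences than these members, but not all were measured precisely. Mthfsd, which lies between them, read -0.05, and the forkhead gene Foxl1, which follows Foxc2, read -0.31 from a level of 3.00 in wild type, below the lower quartiles. The other 5 flanking genes (Emc8, Cox4i1, Irf8, 1700018B08Rik and Fbxo31) read between -0.12 and 0.43. Among 10893 genes with a mean level above the array median, the profiles nearest to Foxf1 over the 6 arrays were those of Plaur, the urokinase receptor, Slc16a7, a monocarboxylate transporter, and Wnt5a, a ligand of mainly non-canonical Wnt signalling. Their root mean square differences from the centred Foxf1 profile were 0.171, 0.183 and 0.183. Wnt5a read 9.75, 9.61 and 8.31 on the wild-type arrays and 8.86, 8.87 and 7.88 on the Fz4-null ones. That order follows from picking Wnt5a by its likeness to Foxf1. The profiles nearest to Foxc2 were those of Ddit4l (0.107), Cd83 (0.107) and the cationic amino acid transporter gene Slc7a2 (0.124). All 3 were lowest on Fz4-null replicate 1, at 6.34, 9.53 and 6.30, which follows from picking them by their likeness to Foxc2.

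Foxo1, a forkhead factor that restrains endothelial growth and metabolism, read 10.09, 10.00 and 10.68 on the wild-type arrays and 10.21, 10.30 and 10.57 on the Fz4-null ones. The difference was 0.10 (95% interval -0.46 to 0.67, adjusted p = 1.0). The brightest Foxo1 probe set, used here, can read more than 1 transcript, and the next brightest gave -0.03. The 4 Foxo1 probe sets gave -0.32 to 0.22, the lowest being a dim one. Of 20 Foxo1 target genes 0 passed, 10 were lower and 10 higher, and the median was -0.01. Sesn1, a stress-responsive regulator of mTOR, had the lowest p of these, with a difference of 0.52 (SE 0.28, adjusted p = 1.0). Among the kinases and other regulators of Foxo proteins, 0 of 12 measured genes passed, 9 were lower and the median was -0.05. Igf1r, the IGF1 receptor, had the lowest p, at -0.50 (SE 0.25). Of 10 genes described as Foxc targets 0 passed, with a median of -0.03, and the Notch ligand Dll4 had the lowest p, at 0.41 (SE 0.20).

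Foxp1, a forkhead repressor expressed in endothelium, had 8 probe sets, and its brightest one read 11.86, 11.79 and 11.76 on the wild-type arrays and 11.86, 11.69 and 11.87 on the Fz4-null ones. The difference was 0.00 (95% interval -0.38 to 0.39). The 8 differences lay between 0.00 and 0.38. In 1 of the 8 the groups did not overlap, with 11.14 to 11.27 on the wild-type arrays and 11.31 to 11.61 on the Fz4-null ones. Non-overlap with the null higher was found for 1 of 26 member probe sets and for 4.08% of all probe sets. Some Foxp1 probe sets differed far more by replicate number than by genotype. On the arrays numbered 3, one probe set read 11.06 and 11.03 (wild type and null) against 9.59 to 10.05 on the other 4, a shift of 1.24. Another lay the other way, at 7.54 and 7.94 against 8.79 to 9.13, a shift of -1.22. Of 4240 genes with at least 2 probe sets above the median on all arrays, 27 (0.637%) had shifts beyond 1 in both directions. Genes with more probe sets, such as Foxp1 with 8, have more chances to meet this cut, which was not set beforehand. The arrays numbered 3 are those with the larger 3′ to 5′ difference of the Gapdh control, whose part in the shifts was not tested.

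**Figure D4:**
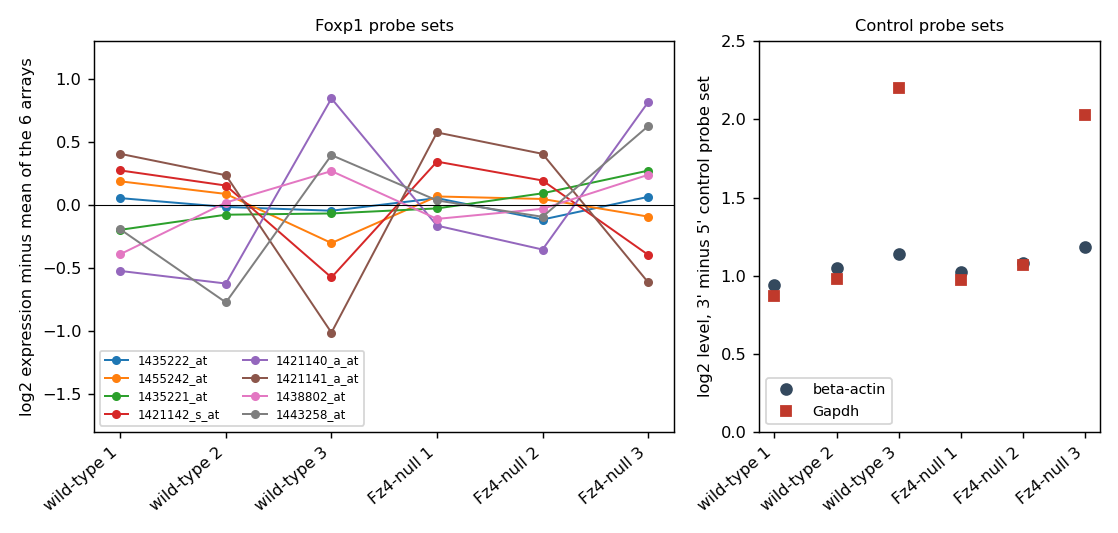
Left, log2 expression of the 8 Foxp1 probe sets minus each one's mean over the 6 arrays (y axis) by array (x axis). Right, log2 level of the 3′ minus the 5′ control probe set of beta-actin and Gapdh. On both arrays numbered 3, one probe set (purple) is high and another (brown) low, and the Gapdh difference is 2.20 and 2.03.

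Across the members the shift of the arrays numbered 3 from the other 4 exceeded the genotype difference for 22 of 26 probe sets and 8 of 9 genes. The same held for 66.2% of all probe sets and 67.4% of all genes. Foxc2 was the exception among the genes, with a shift of -0.19. The shift was -1.31 for Foxf1, 0.91 for Foxf2 and 0.92 for Ppard. Without both arrays numbered 3 the genotype differences of these genes were -0.72, 0.11 and -0.06.

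Ppard, the fatty acid receptor, read 7.82, 7.92 and 9.11 on the wild-type arrays and 7.72, 7.90 and 8.42 on the Fz4-null ones, so wild-type replicate 3 was the highest. The difference was -0.27 (95% interval -1.19 to 0.65, adjusted p = 1.0), and it was 0.14 without wild-type replicate 3. Leaving out wild-type replicate 1 instead gave -0.50. The other probe set did not overlap between the groups, at 3.74 to 4.18 on the wild-type arrays and 3.11 to 3.69 on the Fz4-null ones, but lay near the arrays' lower quartiles. It was the 1 of 26 member probe sets with the null group entirely lower, against 5.18% of all probe sets. Of 15 measured Ppard target genes 0 passed, with 9 lower, 6 higher and a median of -0.05. The fatty acid transporter Cd36 had the lowest p, at 1.37 (SE 0.56, adjusted p = 1.0), and by number it read -0.17, 1.46 and 2.80. Of others named after their values were seen, Fabp3, a fatty acid binding protein, read -1.11 (SE 0.47), with the null group lower without overlap and within every number, and Angptl4, a sensitive Ppard target, read 0.09. Of 12 receptors and cofactors that work with Ppard 0 passed, with a median of 0.03, and Rxrb, a retinoid X receptor that pairs with it, had the lowest p, at 0.52 (SE 0.20). Rxrb was higher in the null group without overlap, at 9.39 to 9.59 against 8.79 to 9.30.

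Mecom had the steadiest reading of the 9 genes. Its brightest probe set read 11.92 to 12.05 on the 3 wild-type arrays and 12.07, 12.04 and 11.95 on the Fz4-null ones. The difference was 0.04 (95% interval -0.34 to 0.42, adjusted p = 1.0), and the SD was 0.06 in both groups. The other Mecom probe sets were dim, with means of 4.72 and 2.48 in wild type, and gave -0.13 and 0.36. Of 9 measured partners 0 passed, with a median of 0.11, and the related factor Prdm16 had the lowest p, at 0.27 (SE 0.29).

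Because Frizzled4 acts through beta-catenin and TCF/LEF factors, the bases before the annotated starts of the members were read for the letters CTTTGA on either strand, a TCF/LEF core. RefSeq promoter sequences of GRCm38.p6 covered 6 of 9 genes with 9 starts, and Foxq1, Foxc2 and Foxf1 were not among them. In the 250 bases before the start, 3 of the 9 starts held the letters, as did 13.8% of all 32851 promoters. The forkhead letters GTAAACA were found in 0 of the 9 and in 3.17% of all promoters. The 3 matches are shown so that the letters can be seen in place, beside the Foxf2 stretch, which holds none. The letters are shown 5′ to 3′ on the strand of the gene, with the match in capitals. The stretches lie at chr3:30509760-30510009 (Mecom, minus strand), chr6:99266516-99266765 (Foxp1, minus strand), chr17:28232504-28232753 (Ppard, plus strand) and chr13:31625566-31625815 (Foxf2, plus strand).
Mecom: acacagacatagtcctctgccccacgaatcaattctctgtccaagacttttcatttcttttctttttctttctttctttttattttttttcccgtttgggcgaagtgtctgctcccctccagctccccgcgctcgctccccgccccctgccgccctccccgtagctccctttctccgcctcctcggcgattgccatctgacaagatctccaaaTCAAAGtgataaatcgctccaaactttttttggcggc
Foxp1: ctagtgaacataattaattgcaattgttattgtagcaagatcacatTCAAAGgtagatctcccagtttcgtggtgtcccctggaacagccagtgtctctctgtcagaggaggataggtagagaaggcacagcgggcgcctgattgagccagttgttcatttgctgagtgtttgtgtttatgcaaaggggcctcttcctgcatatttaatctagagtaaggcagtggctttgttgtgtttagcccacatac
Ppard: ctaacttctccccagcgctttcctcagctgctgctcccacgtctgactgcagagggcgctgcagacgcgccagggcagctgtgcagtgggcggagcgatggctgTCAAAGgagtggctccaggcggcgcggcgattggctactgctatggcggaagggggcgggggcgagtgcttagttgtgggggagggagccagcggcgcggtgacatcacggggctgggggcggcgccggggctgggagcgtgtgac
Foxf2: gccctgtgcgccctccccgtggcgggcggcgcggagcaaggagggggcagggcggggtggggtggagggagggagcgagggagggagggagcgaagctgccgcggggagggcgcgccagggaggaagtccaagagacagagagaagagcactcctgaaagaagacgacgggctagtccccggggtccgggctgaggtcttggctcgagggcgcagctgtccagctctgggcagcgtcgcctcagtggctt
The match begins 37 bases before the start shown in Mecom, 204 in Foxp1 and 146 in Ppard, each as TCAAAG, which is CTTTGA on the other strand. Mecom and Foxp1 also have other annotated starts, whose stretches are not shown and do not hold the letters. A match describes letters and is not shown to be a bound site.

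The remaining forkhead family was read in the same way. Of 37 other forkhead genes 30 were measured, 14 of them above the median on all arrays, and 0 passed. With 19 lower and 11 higher the median was -0.10. Foxp2, a neuronal forkhead factor of Purkinje cells, had the lowest p, at -0.61 (SE 0.24, adjusted p = 1.0), with 7.52, 7.96 and 7.13 on the wild-type arrays and 6.90, 7.05 and 6.83 on the Fz4-null ones. Among those named after their values were seen, Foxp4 had nearly the same p in the other direction, at 0.46 (SE 0.18), with 6.06 to 6.30 in the null group against 5.64 to 5.97. Foxl2, which is found in brain endothelium, read 0.17, and the relatives of Foxo1, Foxo3 and Foxo4, read -0.03 and -0.16. Foxd1 and Foxs1, forkhead genes of pericytes and stroma also named after their values were seen, were lowest on Fz4-null replicate 1. Foxd1 read 5.54 there against 7.85 to 8.74 on the other 5 arrays, and Foxs1 read 4.88 against 6.30 to 7.49.

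No other transcription factor of brain endothelium and no canonical Wnt target passed the test. Of 16 measured factors 0 passed, 6 were lower and 10 higher, with a median of 0.04. Tbx1, a T-box factor, had the lowest p, at -0.62 (SE 0.30, adjusted p = 1.0). Of 9 canonical Wnt targets 0 passed, 8 were lower, and 4 were lower without overlap, where 4.95% of all genes were. Their median was -0.44, against 0.008 over all genes, and the exception, the Wnt effector Lef1, read 0.01. Notum, which inactivates Wnt ligands, had the lowest p, at -1.78 (SE 0.44, adjusted p = 0.811). The mean level of 7 choroid plexus markers was 5.04, 5.73 and 5.45 on the null arrays. On the wild-type arrays it was 6.26, 6.10 and 8.54, so wild-type replicate 3 stood apart, but every null mean lay below every wild-type one. All 7 markers were lower in the null group, 4 of them without overlap. Ttr, the only 1 above the array median on all 6 arrays, differed by -2.48, and by -3.14, -1.24 and -3.05 within the numbers. The part of these markers in the Wnt values was not tested. Over all 9 lists, which hold 129 measured genes, 0 passed in limma and 7 had an unadjusted p under 0.05, where 4.6% of all genes did.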

How the data were processed

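Endothelial cells of 3 Fz4-null and 3 wild-type preparations at postnatal day 16 were each hybridised to 1 Affymetrix 3′ array. RNA was extracted with Trizol and RNeasy, per the labels' protocols. The authors deposited log2 values made with RMA, as the submitters' processing notes record, while the software is not stated in the sources used here. Differences near background are compressed by RMA, and precision is limited by how many arrays there are.

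Of the deposited probe sets, 64 controls were left out and 45037 tested. The platform annotation gave 34945 probe sets 1 symbol, 932 several and 9160 none. For each gene the brightest probe set over the 6 arrays was used. The comparison used limma 3.58.1 under R 4.3.3 (2 groups, no covariate, two-sided, Benjamini-Hochberg over all probe sets at 0.05). Arrays shared at most 0.351% of values. The fit was tested on simulated data.

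Named were all 9 members, the lowest-p gene of each list, chromosomal neighbours and the nearest profiles of the 2 members with the largest difference. Other genes the text names, such as Foxp4, Fabp3, Angptl4, Lef1, Flt4, Foxd1 and Foxs1, were chosen after their values were seen. Members and lists were chosen with earlier results of these data known. The labels number replicates 1 to 3 in both groups. Deviations from the group means correlated at 0.244, 0.303 and 0.574 for like numbers, above the minimum of 0.1, so by that rule the numbers were treated as pairs in an alternative fit with a block. Null 2 with wild-type 1 (0.262) and null 1 with wild-type 2 (0.124) also exceeded it, so these values set number 3 apart but do not separate numbers 1 and 2. Alternatives were 3 normalizations, a filter, a variance trend, array weights, other probe set choices, the block, each array left out, and both arrays numbered 3 left out. Positions and promoters are RefSeq's (GRCm38.p6). Figures used matplotlib 3.10.9.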

Additional observations from a re-analysis of the deposited data

How the results depend on the processing

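Across the alternatives run, 0 member genes, 0 member probe sets and 0 list genes passed in limma, with 0 to 1, 0 to 3 and 4 to 12 at an unadjusted p under 0.05. Over all probe sets 5 passed, 21 with array weights, 0 with the replicate block (3917 at an unadjusted p under 0.05) and 0 without both arrays numbered 3 (3580). Leaving out 1 array left 0 to 2, being 1 without Fz4-null replicate 1, 2 without wild-type replicate 3 and 0 without each other array (at an unadjusted p under 0.05, 3510 without wild-type replicate 3 and 1329 to 2166 without each other array, against 2008 with all). The cause was not tested. The block changed no member's call, but 0 of 45037 probe sets passed with it. Even the brightest Fzd4 probe set, at -6.94, did not pass there (limma with the block, adjusted p = 0.127), so the unchanged calls say little. Foxf1, Foxc2, Foxc1 and Mecom kept their sign in all 16 alternatives each, with Foxf1 at -1.18 to -0.31 and Foxc2 at -1.19 to -0.21. In all, 20 of 144 member values turned sign, none of them called in any setting. Leaving out 1 array gave -0.20 to 0.41 for Foxf2, -0.01 to 0.13 for Foxq1, -0.02 to 0.31 for Foxo1, -0.03 to 0.06 for Foxp1 and -0.50 to 0.14 for Ppard. The mean of the probe sets gave -0.07 for Foxf2 and -0.01 for Foxo1. Without probe sets that can read several transcripts Foxq1 read -0.06 and Foxo1 -0.03. Without both arrays numbered 3 Foxq1 read -0.01 and Foxp1 -0.05. Foxp1 read -0.02 with array weights and -0.01 with quantile normalization and with cyclic loess. Dim probe sets of Foxf2, Foxo1, Ppard and Mecom lie near background, which limits their differences.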
